A study of Mus musculus with 2 samples.

Results

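The subject of this report is the set of nuclear genes that encode the subunits of the mitochondrial respiratory chain and ATP synthase, compared between livers that lack Pgrmc1 and wild-type livers. The genes were chosen by symbol alone: Ndufa, Ndufb, Ndufc, Ndufs or Ndufv followed by a number (complex I), Sdha to Sdhd (complex II), symbols that start with Uqcr (complex III), Cox4 to Cox8 (complex IV) and Atp5 (complex V), without Ndufaf assembly factors and names with -ps. This rule took 84 of the 24054 genes in the deposited table, 37 for complex I, 4 for complex II, 8 for complex III, 18 for complex IV and 17 for complex V. Prefixes also took 4 genes that are not subunits of the assembled complexes (Atp5s, Atp5sl, Cox7a2l and Ndufa4l2), and placed Ndufa4 with complex I although its protein is now counted with complex IV. They missed some subunits with other names, among them Cyc1 (complex III), Ndufab1 (complex I), and Usmg5 and 2010107E04Rik (ATP synthase), which are given with another list below.

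PGRMC1 is a heme-binding membrane protein found mostly in the endoplasmic reticulum and in part in mitochondria. RNA was taken from livers of C57BL/6 male mice aged 8 to 12 weeks that were wild type (WT) or hemizygous for a deleted Pgrmc1 (KO, Pgrmc1 -/Y). In the KO the first and second exons, placed between loxP sites in C57BL/6N embryonic stem cells, had been removed throughout the body by Sox2-Cre, a Cre that acts in the epiblast. RNA of 5 mice per genotype, 2.5 µg from each, was pooled into 1 library per genotype. There was therefore no replicate of either genotype, spread between mice could not be estimated, and no p-value is given. Differences between the pools are described as higher or lower in 1 library.

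The respiratory chain passes electrons from NADH (complex I) and succinate (complex II) through coenzyme Q to complex III, on to cytochrome c, and then to complex IV, which reduces oxygen. Protons pumped by complexes I, III and IV drive ATP synthase (complex V). Liver is rich in mitochondria and uses this chain to support gluconeogenesis, urea synthesis and fat oxidation. A few core subunits are encoded by mitochondrial DNA, which is not analysed here. The other subunits are encoded in the nucleus, and promoters of many such genes carry elements for a shared group of factors, among them NRF1, the ETS factor GABP, YY1 and ERRα.

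Levels are given in transcripts per 1000000 transcripts (TPM), a measure per transcript length that allows genes to be compared and summed. The change of a gene was log2((KO TPM + 1)/(WT TPM + 1)), so that values above 0 are higher in KO. The authors' mean expected counts (called the authors' means below) are a second deposited measure, not divided by transcript length. For their log2 ratio a 95% interval was taken from the estimated reads by the Clopper-Pearson method. These intervals cover counting error only and not differences between mice. The libraries held an estimated 22086692 reads in KO and 29710419 in WT. Pgrmc1 itself stood at 0.68 TPM in KO (15 reads) and 949 TPM in WT (29832 reads), which fits the labels. The hepatocyte markers summed to 86150 TPM in KO and 89433 in WT. In these bulk pools, fewer cells of a type and less RNA per cell cannot be told apart.

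The subunit genes were abundant and nearly equal in the 2 pools. Their summed level was 21409 TPM in KO and 21200 in WT, 2.13% of all TPM in both, with a ratio of 1.01. Averaged over both pools, 79 of the 84 genes reached 1 TPM and 75 reached 10 TPM. Among the 79, 72 lay within 1.1-fold and 74 within 1.2-fold of WT, compared with 67.3% and 89.1% of all 11623 genes at that level. At 10 TPM or more, 74 of 75 lay within 1.2-fold, beside 92.8% of all genes.

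**Figure D1:**
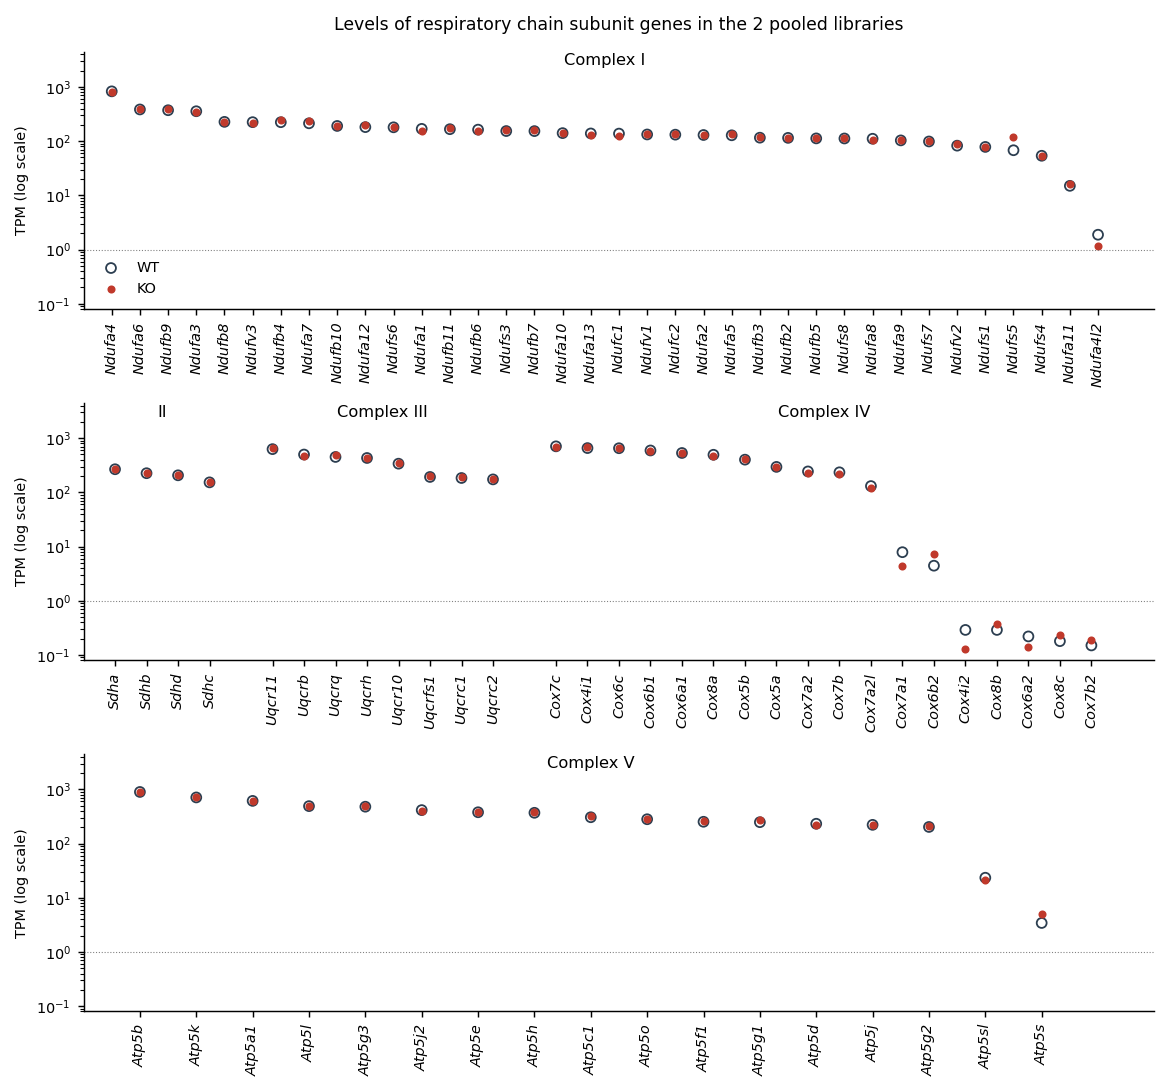
TPM of the 84 genes but 1 (log axis) in the WT pool (open circles) and the KO pool (filled points), ordered within each complex by the WT level; the dotted line marks 1 TPM. Points of most genes coincide, and the visible gaps are at Ndufs5 and at genes under 10 TPM such as Cox7a1, Cox6b2, Ndufa4l2 and Atp5s.

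Fold limits of 1.4 and 0.6 were set after the size of change that the study asked of its RNA-seq, read as a percentage in both directions and without its probability. By these limits 2 of the 79 genes were past them on the high side (Ndufs5 and Cox6b2) and 0 on the low side. Cox7a1, at 0.605, missed the lower limit and would have passed 1/1.4. The share of all tested genes was 1.09% on the high side and 0.301% on the low side. With a smaller fold of 1.2, 3 genes were higher in KO (Ndufs5, Cox6b2 and Atp5s) and 2 lower (Cox7a1 and Ndufa4l2), where all genes gave 5.39% and 5.51%. Apart from Ndufs5, these are genes under 10 TPM that were read few times. The gene with the most reads among the 5, Ndufs5, is described next because its level depends on a second gene.

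Ndufs5 encodes a small accessory subunit of complex I on the intermembrane space side. It stood at 119 TPM in KO and 68.0 in WT, a change of 0.79 with an interval from 0.64 to 1.01, the highest of all 79. Its processed copy BC002163, a separate row of the table, stood at 40.5 TPM in KO and 99.3 in WT, a change of -1.27 with an interval from -1.39 to -0.91. The 2 rows therefore differed in opposite directions. Ndufs5 lies on chromosome 4 (minus strand, 123712710 to 123718202, mm10) and the copy on chromosome 16 (plus strand, 42955631 to 42955949). The copy carries the coding sequence almost letter for letter, so the start of both is shown here, with the differing bases in capitals.
Ndufs5, chr4:123715930-123716079, minus strand: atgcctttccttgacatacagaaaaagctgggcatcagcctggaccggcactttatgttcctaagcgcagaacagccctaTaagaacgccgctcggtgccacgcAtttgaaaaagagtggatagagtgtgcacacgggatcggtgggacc
BC002163, chr16:42955631-42955780, plus strand: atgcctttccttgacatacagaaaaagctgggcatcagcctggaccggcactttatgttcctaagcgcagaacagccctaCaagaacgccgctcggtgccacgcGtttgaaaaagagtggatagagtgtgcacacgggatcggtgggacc

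Over the 318 coding bases compared, 2 differ, T81C and A105G, counted from 1 at the first base of the start codon with the Ndufs5 base first. Of the 219 windows of 100 bases in the coding sequence, 114 (52.1%) are identical in both genes. A read that falls there cannot be placed by its own sequence. The study sequenced in pairs, so the other read of the pair may still place it. Over all Ndufs5 transcripts, 115 of 903 windows (12.7%) are shared. The estimated reads showed how the 2 rows were linked. Ndufs5 had 545.99 reads in KO and 416.74 in WT, and BC002163 had 194.01 and 580.26, all fractions of reads. Added together they came to 740 reads in KO and 997 in WT, whole numbers in both libraries. Summed, the pair stood at 159 TPM in KO and 167 in WT, a change of -0.07. On the authors' means the sum was 860.0 in KO and 858 in WT, a log2 ratio of 0.0036 with an interval from -0.14 to 0.14. The share of the summed TPM given to Ndufs5 was 74.6% in KO and 40.7% in WT. The sum thus differed by less than its counting interval, while the division of the reads between the 2 genes differed. The level of Ndufs5 alone is uncertain for that reason.

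**Figure D2:**
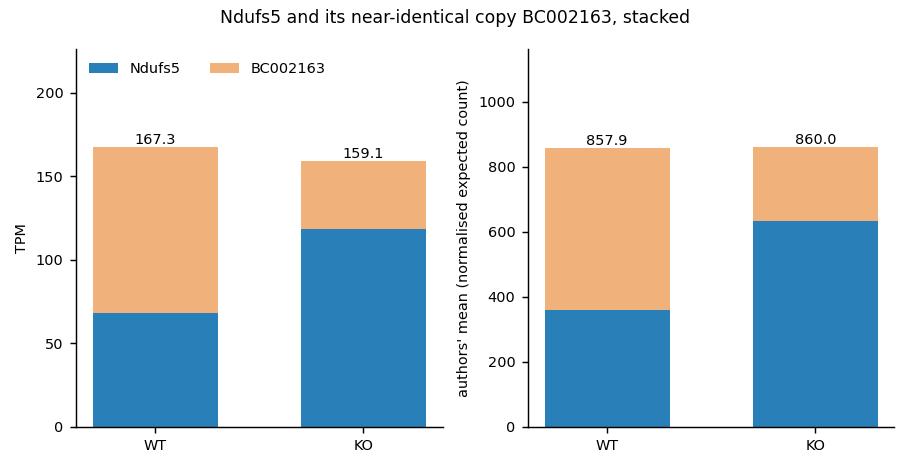
Stacked bars of Ndufs5 (lower, blue) and its copy BC002163 (upper, orange) in WT and KO, in TPM on the left and in the authors' means on the right, with the sum above each bar. The sums are 167.3 and 159.1 TPM and 857.9 and 860.0 on the authors' means, while the boundary between the genes moves.

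Shared sequence of this kind was not limited to Ndufs5. Of the 84 genes, 19 share at least 1 window of 100 bases with another annotated gene, mostly processed copies. For 4 of them (Ndufs5, Atp5g1, Atp5o and Cox7c) the other gene has a row in the table. Adding the other row moved only Ndufs5 across the fold rule, and left 1 gene, Cox6b2, past it.

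Complex I oxidises NADH, and its 37 genes summed to 6511 TPM in KO and 6374 in WT, a log2 ratio of 0.031. This sum, like that of all 84 genes, includes Ndufs5 (119 TPM in KO and 68.0 in WT), whose level alone is uncertain. Part of the ratio therefore rests on how reads were divided between Ndufs5 and BC002163, and a sum without Ndufs5 was not made. The median change was 0.019, with 24 of 37 above 0. The most abundant member was Ndufa4, at 814 TPM in KO and 831 in WT. The 7 core subunits encoded in the nucleus carry the flavin, the iron-sulfur clusters and the quinone site. Ndufv1, which binds FMN, stood at 136 TPM in KO and 133 in WT. Its partner Ndufv2 stood farther apart, with 88.4 TPM in KO and 82.7 in WT, a change of 0.10 and an interval from 0.020 to 0.20. Ndufs1, the largest iron-sulfur subunit, was slightly below 0, with 77.6 and 78.3 TPM. In the module that receives quinone, Ndufs3 stood at 161 TPM in KO and 154 in WT. Ndufs7 stood at 100.2 and 98.7 TPM, and Ndufs8 at 114 and 112. The core subunits named here were all within 1.1-fold.

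Among the accessory subunits of complex I other than Ndufs5, the highest changes were those of Ndufa12, Ndufa7 and Ndufa11. Ndufa12 stood at 203 TPM in KO and 182 in WT, a change of 0.16 with an interval from 0.078 to 0.31. Ndufa7 stood at 233 and 214 TPM, a change of 0.12 with an interval from 0.049 to 0.27. The lowest change was that of Ndufa4l2, a paralog of Ndufa4 known as a hypoxia-responsive gene, at 1.17 TPM in KO and 1.88 in WT. It rested on 12 and 27 reads, and its interval, from -1.85 to 0.29, included 0. Of genes with more reads, Ndufc1 was lowest, at 127 TPM in KO and 138 in WT (-0.12, interval -0.25 to 0.11). The next lowest was Ndufa1 (156 and 169 TPM, -0.11, interval -0.21 to 0.069), which lies on the X chromosome 582 kilobases past the end of Pgrmc1. The other X-linked members were Ndufb11, at 178 and 166 TPM, and Cox7b, described below, so X-linked genes lay on both sides of 0.

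Complex II, succinate dehydrogenase, oxidises succinate and has 4 genes, none of which differed beyond counting error. Its flavoprotein Sdha stood at 267 TPM in both libraries, and its iron-sulfur subunit Sdhb at 227 in KO and 226 in WT. The membrane anchors Sdhc and Sdhd stood at 156 and 153 TPM, and at 206 and 206 TPM. The 4 changes ran from -0.0057 to 0.023, and every interval included 0. Their sum was 855 TPM in KO and 852 in WT, a log2 ratio of 0.0046 that became -0.011 when each TPM column was rescaled to 1000000.

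Complex III passes electrons from reduced coenzyme Q to cytochrome c, and it had the highest median of the 5 complexes, 0.046, with 6 of 8 genes above 0. The core proteins and the Rieske iron-sulfur protein were all above 0. Uqcrc1 stood at 193 TPM in KO and 184 in WT, Uqcrc2 at 179 and 174, and Uqcrfs1, the Rieske protein, at 200.3 and 193. The changes of these 3 were 0.065, 0.041 and 0.057, and together the 3 genes had a ratio of 1.04. The most abundant gene of the complex, Uqcr11, stood at 650.2 TPM in KO and 628 in WT. The extremes were Uqcrq (482 and 450.2 TPM, 0.10, interval 0.057 to 0.22) and Uqcrb (462 and 499 TPM, -0.11, interval -0.15 to 0.0065), both small subunits. Whole-complex sums were 2937 and 2897 TPM.

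Complex IV, cytochrome c oxidase, was the one complex with a summed level lower in KO, 4928 TPM beside 4955 in WT, and a median below 0, -0.013 with 5 of 13 above 0. Both directions depended on the scale: on the authors' means the log2 ratio of the sums was 0.019 and the median 0.026, and the median was 0.0092 when changes were centred on the median gene at 10 TPM or more. Most abundant was Cox7c, at 682 TPM in KO and 707 in WT. Among genes over 10 TPM the extremes were Cox4i1 and Cox7b. Cox4i1, the common isoform of a regulatory subunit, stood at 690 TPM in KO and 656 in WT, a change of 0.071 with an interval from 0.046 to 0.15. Cox7b stood at 214 TPM in KO and 235 in WT, a change of -0.13 with an interval from -0.19 to -0.038. It was the 1 gene of 79 whose interval lay wholly below 0. Cox7a2l, a supercomplex assembly factor taken by its prefix, stood at 121 and 131 TPM, with an interval from -0.19 to 0.0017.

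Several complex IV subunits exist as tissue isoforms, the heart and skeletal muscle forms being Cox6a2, Cox7a1 and Cox8b, with Cox4i2 typical of lung and Cox6b2, Cox7b2 and Cox8c of testis. In both pools the liver forms made up nearly all of each pair. Cox6a1 stood at 529 TPM in KO and 533 in WT, against 0.14 and 0.22 for Cox6a2. Cox8a stood at 479 and 494 TPM, against 0.37 and 0.29 for Cox8b and 0.23 and 0.18 for Cox8c. Cox4i2 was listed at 0.13 and 0.29 TPM on 0 and 2 reads, and Cox7b2 at 0.19 and 0.15. These 5 minor isoforms were under 1 TPM, and 3 of them had no authors' mean. The deposited TPM are posterior means, which list a gene above 0 even without a read, so no fold is given for these 5.

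Cox7a1 and Cox6b2 were above that level. Cox7a1 stood at 4.37 TPM in KO and 7.88 in WT, on 11 and 27 reads, a change of -0.73 with an interval from -2.02 to 0.20. Its liver partner Cox7a2 stood at 231 and 243 TPM, so the minor form was 1.86% of the pair in KO and 3.14% in WT. Cox6b2 stood at 7.17 TPM in KO and 4.44 in WT, on 29 and 23 reads, a change of 0.59 with an interval from -0.072 to 1.62. It was 1.21% of its pair with Cox6b1 in KO and 0.743% in WT. Both intervals included 0, so neither isoform differed beyond counting error at this depth. Of 16 genes on a list of striated muscle and brown fat markers, 2 were over 1 TPM, Elovl3 and Ppargc1a, which liver also expresses. Acta1 had about 3 reads in each library, and Ckm, Mb and Ucp1 were listed at no more than 0.24 TPM.

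**Figure D3:**
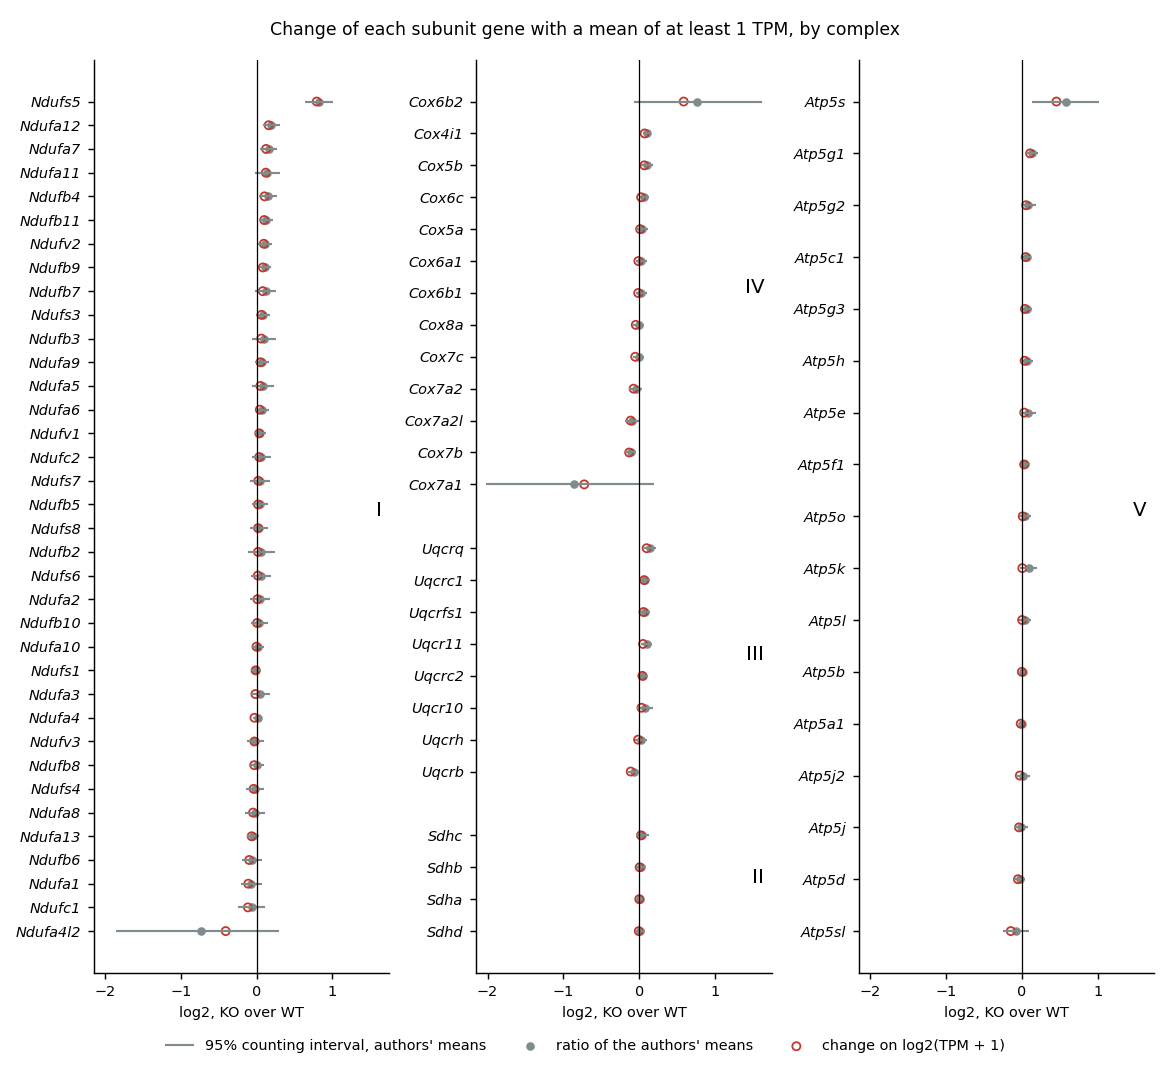
Change of the 79 genes but 1 whose mean reached 1 TPM, by complex, ordered by the change on the log2(TPM + 1) scale (open red circles); grey points are the log2 ratio of the authors' means and grey lines its 95% counting interval. Wide lines belong to genes of few reads (Cox7a1, Cox6b2, Ndufa4l2, Atp5s), and most grey points lie to the right of the red ones.

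ATP synthase genes summed to 6179 TPM in KO and 6122 in WT, and 12 of 17 were above 0 with a median of 0.012, which became -0.0030 when each TPM column was rescaled to 1000000. Atp5b, the catalytic β subunit and the most abundant of all 84 genes, stood at 897 TPM in KO and 896 in WT. Its partner in the F1 head, Atp5a1, stood at 607 and 613 TPM. The other head genes were the rotor γ subunit Atp5c1 (317 and 306 TPM), Atp5d (224 and 232) and Atp5e (387 and 378). The 5 head genes summed to 2432 TPM in KO and 2426 in WT. In the stalk and membrane part, 7 genes ran from -0.037 (Atp5j, 216 and 222 TPM) to 0.038 (Atp5h, 380 and 370 TPM), and they summed to 2750 and 2740 TPM. Between these ends lay Atp5j2 (407 and 414 TPM), Atp5l (492 and 491), Atp5k (713 and 710), Atp5o (284 and 281) and Atp5f1 (258 and 252.5). These parts of the enzyme were thus within 1.1-fold of WT gene by gene.

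The c ring, the proton-driven rotor, is encoded by 3 genes with the same mature protein, and all 3 were above 0. Atp5g1 stood at 268 TPM in KO and 248 in WT (0.11, interval 0.056 to 0.21), Atp5g2 at 211 and 203, and Atp5g3 at 493 and 479. Their sum was 971 TPM in KO and 929.5 in WT, a ratio of 1.04. On the authors' means the log2 ratio of the sum was 0.094 with an interval from 0.050 to 0.14. The division among the 3 genes was nearly the same, Atp5g1 being 27.6% of the sum in KO and 26.7% in WT. The lowest and highest of the complex V genes were both prefix matches. Atp5sl stood at 21.1 and 23.4 TPM (-0.15, interval -0.25 to 0.090). Atp5s, also named Dmac2l, stood at 5.08 TPM in KO and 3.43 in WT on 93 and 84 reads (0.46, interval 0.14 to 1.02).

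Across all 79 genes the median change was 0.018, with 50 (63.3%) above 0, beside a median of -0.013 and 45.8% above 0 for all genes. The excess of genes above 0 was sensitive to small shifts of scale, since most changes were small. The 2 TPM columns do not sum to 1000000 but to 1005325 in KO and 994702 in WT, a log2 ratio of 0.015. When each was rescaled to 1000000, 41 of 79 (51.9%) were above 0, against 41.8% of all genes, and the medians of complexes II and V moved below 0. On the authors' means 58 of 79 (73.4%) were above 0, against 49.1% of all genes. The direction of a complex median is therefore not firm for complexes II, IV and V, while that of complexes I and III stayed above 0 under these scalings. In each of the 3 scalings the share of subunit genes above 0 was larger than that of all genes.

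The 2 measures differed with transcript length. When all genes at 10 TPM or more were divided by effective transcript length into 10 classes of equal size, 49 of the 75 subunit genes fell in the shortest class and 62 in the shortest 2. In the shortest class the authors' means gave a median change 0.028 above that of TPM, and in the longest class 0.0088 above it. Effective length was itself the ratio of the authors' mean to TPM in WT, so part of this trend may be built in. Among other genes the median change also differed with length, from 0.000082 in the shortest class to -0.035 in the longest on the TPM scale. The decrease was not steady, and the lowest median was -0.042 in class 6. The 49 subunit genes of the shortest class had a median of 0.018, with 32 above 0, and the 570 other genes of that class split evenly around 0. On the authors' means the medians were 0.056 and 0.034. Among 2718 other genes within the range of level and effective length that the 75 genes covered, the median was -0.019 with 42.4% above 0. That set was not matched for length within the range. Of its genes 33.7% fell in the shortest 2 classes, against 82.7% of the 75 subunit genes. How far the remaining difference from other short transcripts goes beyond differences between mice was not tested.

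**Figure D4:**
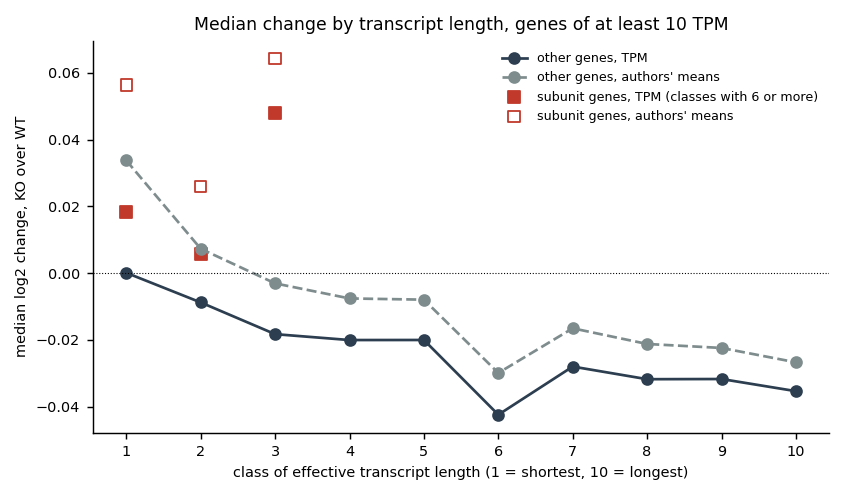
Median log2 change of genes of at least 10 TPM in 10 classes of effective transcript length, for other genes (line) and subunit genes (squares, in the 3 classes that hold 6 or more of them), on TPM (filled, solid) and on the authors' means (open or dashed). The medians of other genes are highest in the shortest class and lower, though not steadily so, in the longer ones. The squares lie above the line of the same measure.

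Counting intervals gave a like picture. They lay wholly above 0 for 18 of the 79 genes and wholly below for 1 (Cox7b). All genes at 1 TPM or more with an interval gave 11.7% above and 13.4% below. At 10 TPM or more, 17 of 75 subunit genes lay above and 1 below, beside 14.5% and 18.8% of all genes. Other genes in the same range of level and effective length gave 16.4% above and 16.6% below. By complex the 18 were 8 of complex I, 4 of complex III, 2 of complex IV and 4 of complex V. The 8 include Ndufs5, whose interval does not cover how reads were divided with BC002163. In the shortest class, 12 of the 49 subunit genes and 18.1% of the other genes had an interval above 0, and 0 of the 49 and 6.67% of the others an interval below 0. These intervals refer to the authors' means, on which short transcripts are shifted upwards.

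The other genes of the pathway were read from lists. Assembly factors, which build the complexes but are not part of them, had a median of -0.0049 with 23 of 47 above 0, and of 0.019 on the authors' means. The lowest was Cox19, a copper-handling factor of complex IV assembly, at 37.5 TPM in KO and 48.9 in WT (-0.37, interval -0.56 to -0.15). The highest, Pet117, rested on about 2 reads. By complex, 8 of 15 factors of complex I and 8 of 22 of complex IV were above 0. With the 1.2-fold rule 3 of the 47 assembly factors were higher and 3 lower, where all genes gave 5.39% and 5.51%. With the 1.4 and 0.6 rule 0 of 47 passed in either direction, where all genes gave 1.09% and 0.301%.

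A list of electron carriers and coenzyme Q genes had a median of 0.031 with 16 of 22 above 0. Of the 22, 0 passed 1.2-fold, where all genes gave 5.39% higher and 5.51% lower. The list also holds Cyc1 (0.00051), Ndufab1 (0.032), Usmg5 (0.030) and 2010107E04Rik (0.044), which are subunits, and Atpif1 (0.13), an inhibitor of ATP synthase. All of these are among the 16. Adck3, a kinase-like protein needed for coenzyme Q synthesis and also named Coq8a, was highest, at 134 TPM in KO and 114 in WT on 7238 and 8230 reads (0.24, interval 0.20 to 0.29). Coq7, the hydroxylase of the same pathway, was lowest, at 26.2 and 30.9 TPM (-0.23, interval -0.45 to 0.010). Cytochrome c (Cycs) stood at 66.8 TPM in KO and 68.8 in WT, and cytochrome c1 (Cyc1) at 170.4 and 170.3. The citric acid cycle and pyruvate dehydrogenase genes had a median of -0.034 with 5 of 19 above 0. Their extremes were Idh3a (0.22, interval 0.10 to 0.40) and Pdhx (-0.16, interval -0.31 to -0.0060). Subunits and cycle enzymes thus lay on opposite sides of 0 by their medians, each by less than 1.1-fold. These lists were not matched for transcript length. The median of other genes at 10 TPM or more also differed with length. It was -0.035 in the longest class and lowest, -0.042, in class 6.

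Regulators of mitochondrial biogenesis had a median of -0.0092, with 9 of 20 above 0, and of 0.0017 on the authors' means. The coactivator Ppargc1a stood at 4.96 TPM in KO and 6.36 in WT on 439 and 755 reads (-0.30, interval -0.52 to -0.18). Its relative Ppargc1b stood at 4.76 and 6.43 TPM (-0.37, interval -0.66 to -0.19). Both were lower in KO, by more than any subunit gene over 10 TPM. The factors that they act with differed less. Nrf1 stood at 6.04 and 6.24 TPM, Gabpa at 23.6 and 24.4, Esrra at 12.8 and 12.2, and Yy1 at 32.3 and 33.7, each with an interval that included 0. Tfam, which packages mitochondrial DNA, stood at 16.3 TPM in KO and 15.1 in WT. Polg2, the accessory subunit of the mitochondrial DNA polymerase, was highest, at 6.23 and 4.77 TPM (0.33, interval -0.023 to 0.74).

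Promoters of the subunit genes were searched for the sites of those factors, in windows from 250 bases before to 50 after the start site, on both strands. RefSeq sequences (GRCm38.p6) were matched for 69 of the 84 genes. The palindromic NRF1 site was found in 5 (7.25%), against 1.07% of all promoters and 2.50% of those of genes at 10 TPM or more. The ETS core CCGGAAG was found in 16 (23.2%), against 9.93% and 22.5%. The YY1 site AAGATGGCG was found in 8 (11.6%), against 1.64% and 4.32%. The ERR site TCAAGGTCA was found in 2 (2.90%), Atp5g3 and Sdhd, against 0.466% and 0.254%. The shares for NRF1, YY1 and ERR were thus above, and that for ETS close to, the shares among genes at 10 TPM or more. This is a description without a test, and the ERR share rests on 2 genes. Among 68 mitochondrial ribosomal protein genes the shares were 4.41% for NRF1, 36.8% for ETS, 11.8% for YY1 and 0% for ERR. Subunit genes with an NRF1, ETS or YY1 match had a median change of 0.0062 (26 genes), and those without, 0.019 (41 genes). Cox6a1, a complex IV subunit at 529 and 533 TPM, is shown because 2 kinds of site lie in its promoter, in capitals, the NRF1 letters 162 bases before the start and the ETS letters on the opposite strand 16 bases before it.
Cox6a1, chr5:115348959-115349208, minus strand: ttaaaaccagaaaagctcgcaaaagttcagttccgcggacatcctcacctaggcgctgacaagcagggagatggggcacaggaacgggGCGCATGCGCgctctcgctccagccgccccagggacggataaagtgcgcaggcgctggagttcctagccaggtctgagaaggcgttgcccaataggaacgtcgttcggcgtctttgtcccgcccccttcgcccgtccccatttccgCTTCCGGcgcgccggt

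Mitochondrial and cytosolic ribosomal protein genes, also short and abundant transcripts, were set beside the subunits. The mitochondrial ribosomal proteins had a median of -0.014 (0.0064 on the authors' means) with 36 of 77 above 0, and their summed level was 2865 TPM in KO and 2873 in WT. All 77 lay within 1.2-fold, from -0.25 (Mrpl40) to 0.26 (Mrpl36), beside 89.1% of all genes. The cytosolic ribosomal proteins had a median of 0.036 with 60 of 87 above 0. They included 1 gene past each side of the fold rule, Rps27 at 1.39 and Rpl30 at -1.56, where all genes gave 1.09% and 0.301%. The median of the subunit genes lay between those of the 2 ribosomal lists.

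Markers of liver cell types had medians farther from 0 than the subunit genes did. Of 13 Kupffer cell markers, 12 were above 0 with a median of 0.17, and their sum was 436 TPM in KO and 383 in WT. Folr2 was highest, at 15.6 and 11.2 TPM, and Cd68 lowest, at 7.37 and 8.99. Endothelial markers were all below 0 (0 of 12 above it, median -0.096, from Stab1 at -0.0082 to Lyve1 at -0.60), with sums of 234 and 256 TPM. Stellate cell markers had a median of -0.13 with 4 of 14 above 0, from Rgs5 at -0.53 to Lrat at 0.17. Hepatocyte markers had a median of -0.074 with 4 of 11 above 0, from Tat at -0.28 to Fgb at 0.090. Of the red cell genes, 5 of 8 were above 0, from Hbb-bs at -0.89 to Hbb-b2 at 0.34. Hbb-b2 and Hbb-bt (-0.27) had the same estimated reads, 530.65 in KO and 695.27 in WT, with an interval from -0.12 to 0.21. Hbb-bs, Hbb-b1, Hba-a1 and Hba-a2 had fractions of reads too, for Hbb-bs 231.18 in KO and 564.32 in WT. The TPM change of each of these globin genes alone, that of Hbb-bs included, is therefore uncertain. The part of these cell types in the small differences of the subunit genes was not tested.

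**Figure D5:**
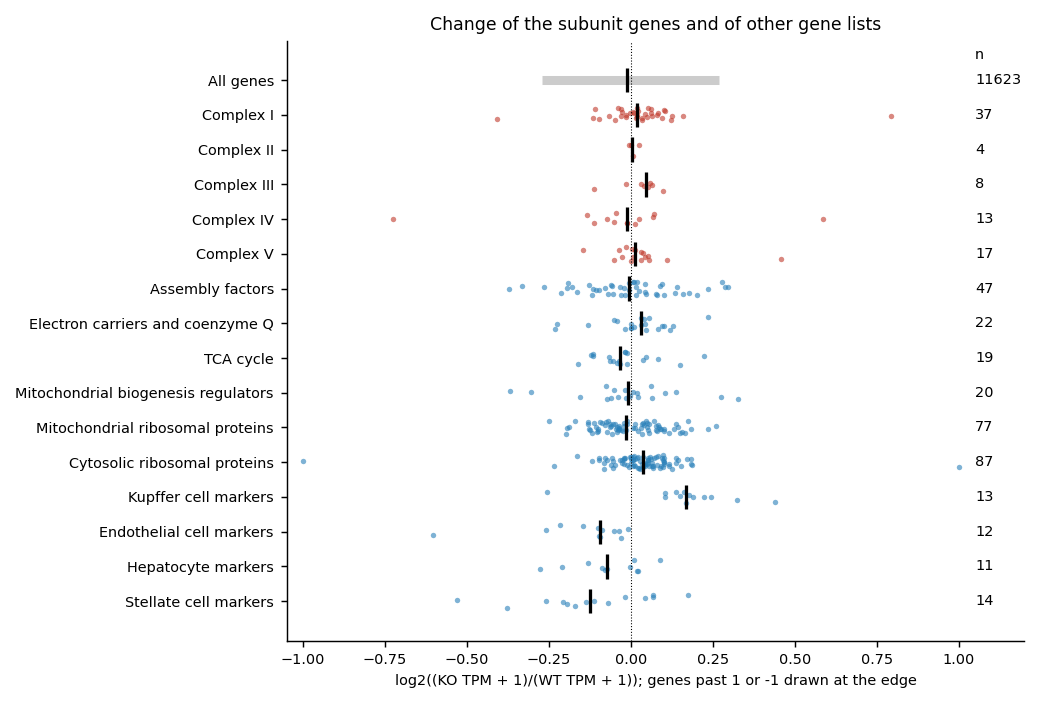
Change of each gene whose mean reached 1 TPM (points) and the median (black bars) for the 5 complexes (red) and other lists (blue), with the number of genes at the right; the grey band of all genes runs from the 5th to the 95th percentile. The medians of the complexes lie close to 0, that of the Kupffer cell markers at 0.17 and that of the endothelial markers at -0.096.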

How the data were processed

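Liver RNA of 5 mice per genotype was pooled into 1 stranded total RNA library each. According to the submitters' processing notes, the authors used CASAVA 1.8.2, Bowtie and RSEM 1.2.09 with mm10. The deposited TPM are the authors' posterior mean values. The second deposited table holds the authors' mean signal per genotype, normalised expected counts, whose columns were assigned to genotypes by the headings of the study's supplementary table; its posterior probabilities and fold changes are the authors' own comparisons and were not used. Smallest steps of that signal (1.1622 in KO, 0.86046 in WT) gave estimated reads, of which 78.4% and 75.0% were whole within 0.02. No count test with a p-value was run for that reason. The intervals were made from the same reads rounded to whole numbers. They do not cover the error of dividing reads between genes, and an interval that excludes 0 is a description only.

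Changes used a pseudocount of 1 TPM, and genes whose mean over both libraries was under 1 TPM were left out. Effective length was taken as the ratio of the authors' mean to TPM in WT. Shared windows of 100 bases came from GENCODE vM21 transcripts (GRCm38). Estimated reads summed to 22086692 in KO and 29710419 in WT, and intervals cover counting error only. Python 3.11.15 with numpy 2.4.6, pandas 2.3.3 and scipy 1.17.1 was used, and the fold and interval code was tested on simulated data. Alternatives were other pseudocounts, scalings, filters, folds and backgrounds. The text names Pgrmc1, the most abundant, highest and lowest gene of each complex, genes past 1.2-fold, those of listed roles, those under 1 TPM and the extremes of each other list; further genes were added after their values were seen. Members and lists were chosen with earlier results of these data known. Mitochondrially encoded genes were not analysed here. A gene is counted in the totals and not reported here.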

Additional observations from a re-analysis of the deposited data

How the results depend on the processing

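The median change of the members was between 0.0032 and 0.047 in every alternative run. No paired analysis was possible because there was 1 pooled library for each genotype, and no library could be left out. Members past the fold on the high side numbered 1 instead of 2 at 10 TPM or more and 1 when rows that share windows were summed (an alternative chosen after seeing the data, as was rescaling to 1000000), and Ndufs5 then changed sign to -0.072. It was 3 with a fold of 1.2, 3 with a pseudocount of 0.1 TPM and 3 on the authors' means. On the low side the count was 0, and became 2 with a fold of 1/1.2, 1 with 1/1.4, 1 with a pseudocount of 0.1 TPM, 1 on the authors' means and 1 after rescaling to 1000000. On the authors' means the log2 ratio of the summed level was 0.037 for all members, 0.057 for complex I, 0.019 for complex II, 0.060 for complex III, 0.019 for complex IV and 0.028 for complex V, and the median of the hepatocyte markers was -0.059. After rescaling to 1000000 the log2 ratio of the sums was -0.0011 for all members, -0.011 for complex II and -0.0021 for complex V. The sums of all members and of complex I include Ndufs5, whose level alone is uncertain. Of 320 values of single genes, 319 moved by no more than 1/2 the width of their counting interval. That width is only a yardstick, since the alternatives used the same libraries. Of the 320 values, 17 changed sign, in 11 genes. With 1 library per genotype, depth limits the genes under 10 TPM, and differences between mice could not be set against those between genotypes.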
